A study of Homo sapiens with 9 samples.

Results

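The genes described here are 47 chaperones, cochaperones and heat shock factors, taken from the 64253 genes of a count table as the protein-coding entries that carry 47 symbols fixed in a list. They were grouped into 11 families by known role: heat shock factors, cytosolic Hsp70, Hsp110 exchange factors, J-domain cochaperones, BAG cochaperones, cytosolic Hsp90, Hsp90 cochaperones, small heat shock proteins, mitochondrial chaperones, the CCT chaperonin and prefoldin. The list is named for cytosolic proteins, but 4 of its members (HSPA9, HSPD1, HSPE1 and TRAP1) encode chaperones of the mitochondrion. They are kept as a family of their own, apart from the other 43.

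Molecular chaperones bind unfolded protein and help it fold or keep it from aggregating. Hsp70 takes up nascent or unfolded chains with the help of J-domain proteins and releases them when exchange factors swap its nucleotide; some clients are passed on to Hsp90 for late folding steps, and prefoldin hands actin and tubulin to the ring-shaped chaperonin CCT (also called TRiC). The factor HSF1 switches on many of these genes when misfolded protein builds up, through DNA sites made of alternating GAA and TTC units.

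RNA was sequenced from EPC2, labelled a squamous epithelial line from normal human esophagus and grown in serum-free keratinocyte medium with pituitary extract and epidermal growth factor. There were 3 groups of 3 libraries, which the design text calls biological triplicates: untreated cells, cells given an empty vector with the lipid carrier Lipofectamine 2000, and cells given a plasmid with FOXF1, a forkhead transcription factor, by the same carrier. No group was given the carrier alone, so changes with the carrier and with the vector DNA cannot be told apart. The share of cells that took up DNA is not given in the sources used here. In bulk RNA, fewer expressing cells cannot be told apart from less RNA per cell. The p-values of fold changes below are set against the spread between these libraries. For each gene that spread was estimated with information borrowed from the other genes (median prior degrees of freedom 23.0 in the main fit).

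The libraries held 34390666 to 39973289 counted reads. FOXF1 had at most 1 read in any untreated library, 0, 0 and 6 reads in the vector libraries and 367, 184 and 141 in the plasmid libraries; reads from the plasmid and from the chromosome cannot be separated. Squamous markers were nearly absent: TP63 and SPRR3 had no read, which allows up to 0.0872 CPM (read counts scaled by the unadjusted library total, for this limit alone) with 3 reads as the limit, 1 of 8 markers (KRT5) was tested, and their summed level stayed between 0.227 and 0.597 CPM (here and below with library totals adjusted by the trimmed mean of M-values, TMM). All 6 markers of simple epithelium were tested; they summed to 4057 to 4687 CPM in untreated, 3446 to 3868 in vector and 3954 to 4209 in plasmid libraries. Of these, KRT18 (-0.41 on the log2 scale, adjusted p = 0.000191) and KRT7 (-0.26, adjusted p = 0.012) were called lower after the empty vector by edgeR, and by library size alone KRT18 (-0.16, adjusted p = 0.0294) but not KRT7 (-0.01). Of 7 fibroblast markers, COL1A1 and PDGFRB were tested and COL1A2 and LUM had no read. COL3A1, DCN and PDGFRA were not tested, at no more than 0.165 CPM in any library. The sum was 1117 to 1319 CPM in untreated, 1510 to 1573 in vector and 1542 to 1795 in plasmid libraries. It was nearly all COL1A1, with group means of 1210, 1487 and 1604 in that order. Both tested genes were called higher after the vector (COL1A1 0.30, PDGFRB 0.47 on the log2 scale). The part of either marker list in the changes below was not tested. Reads of the mitochondrial genome made up 20.9% ± 2.001 of the untreated, 11.2% ± 0.761 of the vector and 14.1% ± 0.517 of the plasmid libraries (SD, n = 3). The 47 chaperone genes took 1.00% ± 0.0488, 1.04% ± 0.0262 and 0.991% ± 0.0287 of the other reads (SD, n = 3).

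Chaperone transcripts spanned more than 3 orders of magnitude per exonic length. Levels in this paragraph are RPKM, that is TMM-scaled CPM per kilobase of exon. In untreated cells the highest was HSPB1 (Hsp27, a small heat shock protein that holds unfolded clients) at 374 ± 18.1 (SD, n = 3). The constitutive cytosolic Hsp90 HSP90AB1 stood at 359 ± 31.8 and did not differ from HSPB1 beyond that spread. Next came the chaperonin subunit CCT7 at 213 ± 3.57 and the constitutive Hsp70 HSPA8 at 200.1 ± 21.2, again within the spread of each other. The mitochondrial Hsp90 TRAP1 followed at 112 ± 4.38. At the other end lay the strictly inducible Hsp70 HSPA6 at 0.234 ± 0.113, HSPA4L at 0.299 ± 0.0136 and DNAJB4 at 0.324 ± 0.0542, each within the spread of the next. The lens and muscle small heat shock protein CRYAB had 2, 16 and 5 reads in untreated, 1, 3 and 0 in vector and 0, 2 and 1 in plasmid libraries, and was the only member below the low-count filter, which left 46 for testing.

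Summed over a family, the 7 chaperonin genes reached 519 ± 14.0 in untreated, 531 ± 21.1 in vector and 527 ± 18.4 in plasmid libraries on the same scale (SD, n = 3). The cytosolic Hsp90 pair summed to 422 ± 36.7, 393 ± 12.5 and 380.3 ± 10.1. The 6 cytosolic Hsp70 genes summed to 299.7 ± 23.6, 325 ± 11.8 and 299 ± 26.9. These sums are relative to TMM scaling. The chaperonin means lay within the spread of each other. The Hsp90 mean with vector lay within 1 untreated SD of the untreated mean, and the plasmid mean lay just below that range. The Hsp70 mean with vector lay just above 1 untreated SD. By library size alone neither Hsp90 gene was lower after the empty vector (HSP90AA1 0.68, HSP90AB1 0.02 on the log2 scale). The sums were not computed with that scaling. Single genes inside each family moved apart. The small heat shock proteins, nearly all HSPB1, summed to 375 ± 18.2, 302 ± 23.2 and 349.5 ± 19.2.

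**Figure D1:**
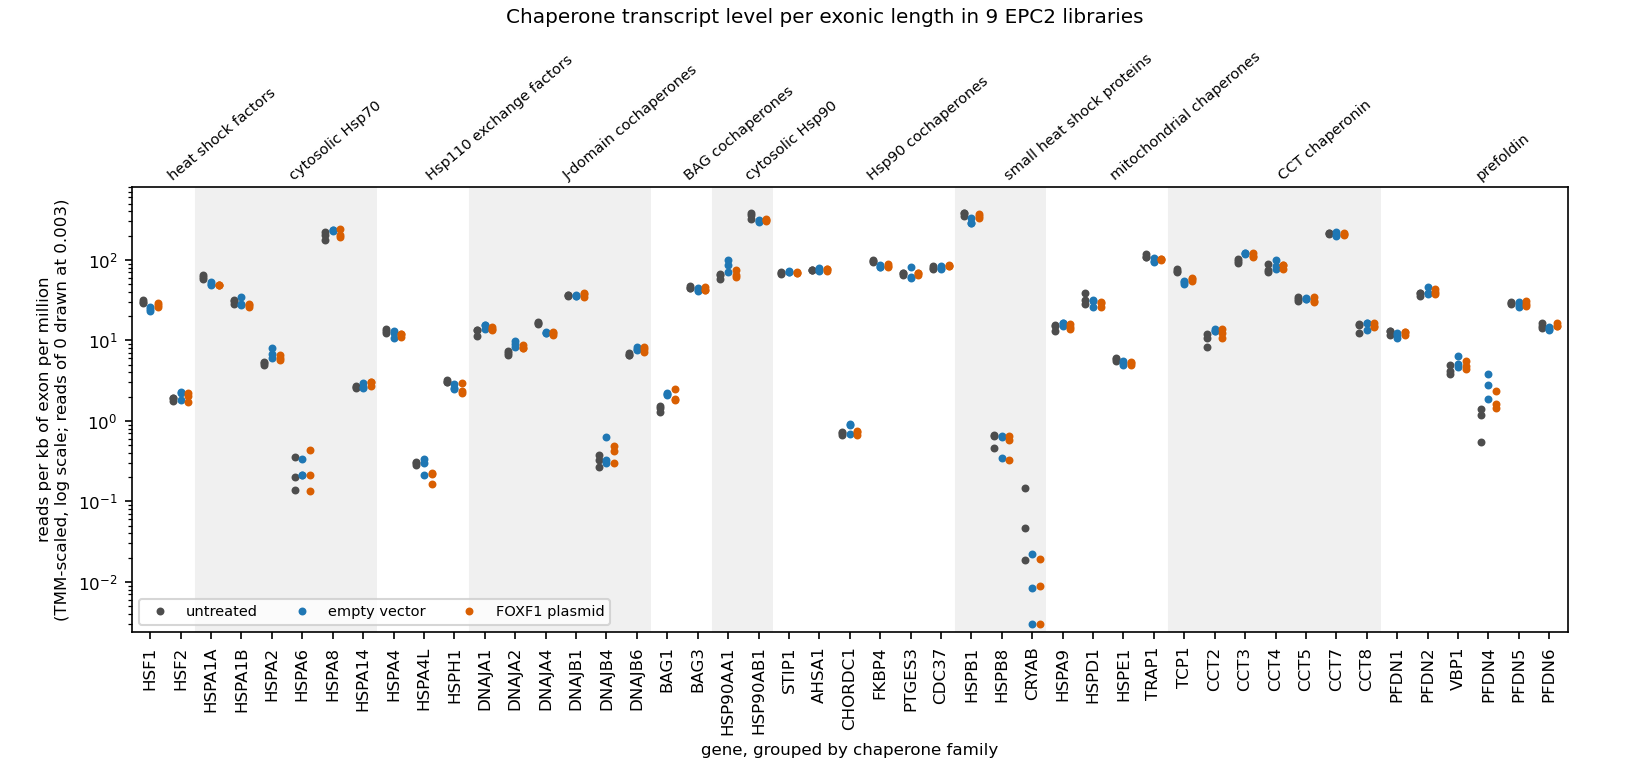
Each point is 1 library (black untreated, blue empty vector, orange FOXF1 plasmid); the vertical log axis is CPM per kilobase of exon, TMM-scaled, and genes are ordered by family. HSPB1, HSP90AB1, CCT7 and HSPA8 are highest, HSPA6 and CRYAB lowest, and for most genes the 9 points lie close together.

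The promoters of 42 members could be matched to RefSeq windows (GRCh38.p14), which run from 250 bases before to 50 after an annotated start site. Not matched were HSF1, HSPA14, FKBP4, CRYAB and PFDN2. The windows were searched for pairs of heat shock units, GAANNTTC or TTCNNGAA, each its own reverse complement. Such a pair was in 24 of 61 member windows (22 genes), against 13.5% of 35116 windows of all genes. At least 3 alternating GAA and TTC units with 2 bases between them were in 8 member windows, against 0.490% of all; these contain a pair by construction. The ATF4-type letters TGATGNAA, on either strand, were in the windows of HSPA4L and DNAJA4, against 3.62% of all.

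The stretches are shown because they hold the longest runs of units. With TMM scaling, the genes behind them were called higher, lower or not at all after the empty vector. Capitals mark the units; each sequence is given 5′ to 3′ on the gene's strand, and HSPA1A and HSPA1B are added as the classical inducible Hsp70 pair.
HSP90AA1, chr14:102087111-102087140, minus strand: gagggttcTTCCGGAAGGTTCgggaggctt
HSP90AB1, chr6:44247770-44247799, plus strand: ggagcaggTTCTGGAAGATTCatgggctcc
HSP90AB1, chr6:44247823-44247852, plus strand: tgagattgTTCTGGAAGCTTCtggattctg
HSPA8, chr11:123062170-123062199, minus strand: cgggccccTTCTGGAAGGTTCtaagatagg
HSPA8, chr11:123062345-123062374, minus strand: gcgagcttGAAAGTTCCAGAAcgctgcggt
HSPA6, chr1:161524458-161524487, plus strand: cggaaaggTTCGCGAAAGTTCgcggcggcg
DNAJA1, chr9:33025268-33025297, plus strand: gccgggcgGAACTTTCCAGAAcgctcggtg
DNAJB6, chr7:157336865-157336894, plus strand: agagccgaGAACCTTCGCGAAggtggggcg
CHORDC1, chr11:90223083-90223112, minus strand: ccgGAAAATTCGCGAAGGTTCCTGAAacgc
HSPD1, chr2:197500061-197500090, minus strand: gcattTTCTGGAAAGTTCTGGAAccgagcg
HSPA1A, chr6:31815426-31815455, plus strand: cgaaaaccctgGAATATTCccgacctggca
HSPA1B, chr6:31827622-31827651, plus strand: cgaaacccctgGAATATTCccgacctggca
The run is longest in CHORDC1, with 5 units, followed by HSPD1 with 4; HSPA1A and HSPA1B show a single pair in nearly the same surroundings. The HSPD1 stretch also lies in annotated exon of its divergent neighbour HSPE1, and those of CHORDC1, DNAJA1, HSP90AA1 and HSPA8 lie in annotated exon of their own gene. A match is a description of letters in a window and not evidence that a factor binds there.

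Between empty vector and untreated cells, 10 of the 46 tested members were higher and 7 lower, by edgeR's quasi-likelihood test at a Benjamini-Hochberg adjusted p below 0.05 over 16366 genes. Over all genes tested, 10.2% were called higher and 9.37% lower. The median log2 fold change was 0.01 over the members and 0.04 over all genes, so the members were split in both directions around no shift. Higher were PFDN4, BAG1, HSP90AA1, HSPA2, DNAJA2, CCT2, CCT3, DNAJA1, DNAJB6 and HSPA8. Lower were TCP1, DNAJA4, HSPB1, HSF1, HSPA1A, FKBP4 and HSP90AB1. Except for PFDN4 and BAG1, no called change exceeded 0.48 in size on the log2 scale. Separation of libraries between groups is given below as description. For single genes it refers to TMM-scaled CPM and was not examined by library size alone. Its share over all genes was computed only for plasmid against vector.

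These directions are relative to TMM scaling. Scaling by library size alone moved the median of all genes by 0.25 on the log2 scale, and 25 members were then higher and 1 (TCP1) lower, against 35.0% higher and 2.07% lower over all genes. TCP1 was lower and PFDN4, BAG1, HSP90AA1, HSPA2, DNAJA2, CCT2, CCT3, DNAJA1, DNAJB6 and HSPA8 higher under both scalings, whereas the other 6 lower calls were lost and HSP90AB1 and FKBP4 moved to 0.02 each. Further members, not called with TMM, were called higher by library size alone. These were HSF2, HSPA1B, DNAJB1, STIP1, AHSA1, CHORDC1, PTGES3, CDC37, HSPA9, CCT4, CCT5, CCT7, CCT8, PFDN2 and VBP1. With the mitochondrial genome left out before scaling, 9 members were higher and 8 lower, against 9.88% and 9.96% over all genes.

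**Figure D2:**
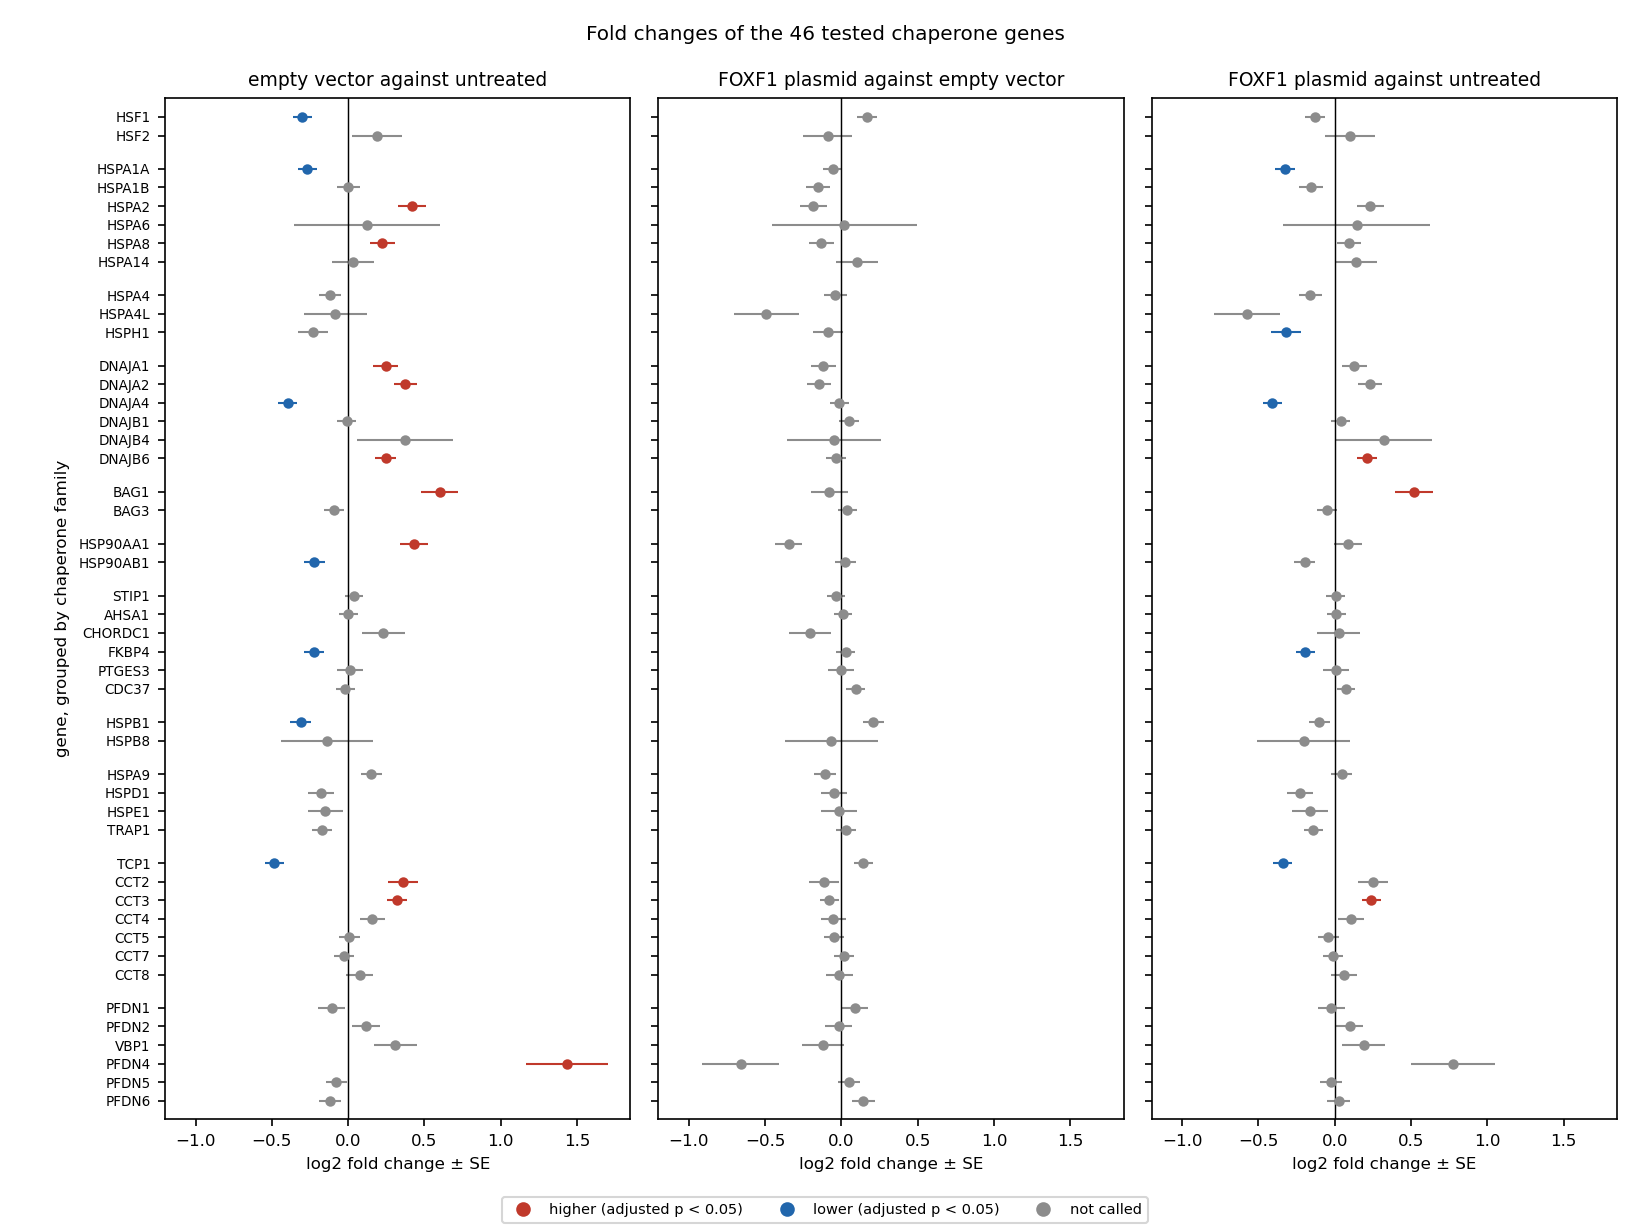
Points are log2 fold changes of the 46 tested genes with their standard errors, in 3 panels for the 3 comparisons, TMM-scaled; red is higher, blue lower and grey not called. Calls of both colours occur in the left panel (10 and 7), none in the middle and 3 and 5 in the right; by library size alone the left panel would hold 25 and 1.

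Of the heat shock factors, HSF1 was lower after the empty vector and HSF2 was not called. HSF1, the main activator of the heat shock response (ENSG00000185122, chr8:144291591-144314722), stood at 168, 161 and 154 CPM in untreated, 137, 130.3 and 124 in vector and 147, 154 and 139 in plasmid libraries. All 3 vector libraries lay below all untreated and all plasmid libraries. Its log2 fold change after vector was -0.30 ± 0.06 (SE, adjusted p = 0.00115), and -0.05 by library size alone, where it was not called. Against the vector, the plasmid gave 0.17 ± 0.06 (adjusted p = 0.416). HSF2, a relative that works with HSF1, was at 0.19 ± 0.16 after vector. By library size alone it was called higher, at 0.44 (adjusted p = 0.0433).

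Cytosolic Hsp70 genes went both ways after the empty vector: HSPA2 and HSPA8 were higher, HSPA1A was lower, and 3 of 6 were not called. HSPA2, an Hsp70 best known from sperm development (ENSG00000126803, chr14:64535905-64546173), stood at 28.97, 30.02 and 31.4 CPM untreated, 34.9, 39.1 and 46.8 with vector and 32.9, 38.4 and 35.1 with plasmid. Every transfected library was above every untreated one, and the fold change after vector was 0.42 ± 0.09 on the log2 scale (adjusted p = 0.0012). HSPA8, the housekeeping Hsp70 (ENSG00000109971, chr11:123057489-123063230), stood at 861, 985 and 1065 CPM untreated, 1106, 1144 and 1151 with vector and 944, 979.8 and 1182 with plasmid.
The vector libraries of HSPA8 were all above the untreated ones, but the gap between the nearest libraries was small. Its fold change was 0.22 ± 0.08 (adjusted p = 0.0464); the call was lost in 8 of 18 alternative settings, for example without untreated replicate 1 (0.13, adjusted p = 0.339), the lowest library, and without untreated replicate 2, vector replicate 2 or 3, or plasmid replicate 2 (adjusted p = 0.104, 0.111, 0.125 and 0.0677).

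The stress-inducible pair HSPA1A and HSPA1B did not move alike. HSPA1A (chr6:31815464-31817946) stood at 153, 143 and 161 CPM untreated, 122, 125 and 133 with vector and 123, 121 and 121 with plasmid, so every transfected library was below every untreated one. Its fold change after vector was -0.27 ± 0.06 (adjusted p = 0.00284), but -0.02 by library size alone. HSPA1B (chr6:31827735-31830255) stood at 76.9, 71.2 and 79.7 CPM untreated, 69.0, 71.3 and 87.8 with vector and 65.0, 69.3 and 70.5 with plasmid, with overlapping groups after vector and a fold change of 0.00 ± 0.08.
Inside each library, where scaling cancels, the ratio of HSPA1B to HSPA1A per exonic length was 0.491 ± 0.00424 untreated, 0.590 ± 0.0523 with vector and 0.553 ± 0.0282 with plasmid (SD, n = 3). Both genes encode almost the same protein, reads that fit both cannot be assigned with certainty, and another annotated gene overlaps 36.5% of the HSPA1B exons on the same strand. HSPA6, inducible only, stayed at 0.323 to 1.03 CPM in all 9 libraries, and HSPA14, a ribosome-associated relative, was at 0.03 ± 0.14.

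None of the 3 Hsp110 genes, exchange factors for Hsp70, was called after the vector by edgeR, DESeq2 or limma-voom (unadjusted p of the quasi-likelihood test 0.0255 for HSPH1, 0.125 for HSPA4 and 0.692 for HSPA4L). HSPH1 (Hsp105; ENSG00000120694, chr13:31134974-31162388) stood at 25.8, 27.1 and 25.7 CPM untreated, 21.8, 21.2 and 24.2 with vector and 24.5, 18.9 and 19.7 with plasmid; all transfected libraries lay below the untreated ones, with fold changes of -0.23 ± 0.10 (adjusted p = 0.0988) after vector, or 0.02 by library size alone, and -0.32 ± 0.10 (adjusted p = 0.0382) after plasmid. The plasmid call was lost without untreated replicate 1 or 2 or plasmid replicate 2 or 3 (adjusted p = 0.0584, 0.116, 0.167 and 0.179) and by library size alone (-0.17, adjusted p = 0.309). HSPA4 (ENSG00000170606, chr5:133051962-133106449), the most abundant of the 3, stood at 63.8, 71.6 and 67.0 CPM untreated, 55.3, 63.5 and 67.5 with vector and 61.5, 57.3 and 62.5 with plasmid, with overlapping groups and a fold change after vector of -0.12 ± 0.07 (adjusted p = 0.293), or 0.13 by library size alone.

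Of the J-domain proteins, which bring clients to Hsp70 and start its ATPase, DNAJA1, DNAJA2 and DNAJB6 were higher after the empty vector and DNAJA4 was lower. DNAJA4 (ENSG00000140403, chr15:78264086-78282196) stood at 107, 112 and 106 CPM untreated, 82.3, 81.1 and 83.9 with vector and 82.2, 77.9 and 84.9 with plasmid. All 6 transfected libraries were well below the 3 untreated ones and did not separate from each other. The fold changes were -0.40 ± 0.06 after vector (adjusted p = 3.38e-05) and -0.41 ± 0.06 after plasmid (adjusted p = 5.61e-05); by library size alone the first was -0.15 and not called.
DNAJA2 (ENSG00000069345, chr16:46955362-46973788) stood at 33.7, 35.8 and 37.4 CPM untreated, 42.3, 46.1 and 50.3 with vector and 43.8, 40.2 and 41.3 with plasmid. Every transfected library exceeded every untreated one, with 0.38 ± 0.08 after vector (adjusted p = 0.000788). DNAJA1 was at 0.25 ± 0.08 (adjusted p = 0.0302) and DNAJB6, known for keeping polyglutamine proteins soluble, at 0.25 ± 0.07 (adjusted p = 0.00809). The DNAJA1 call was lost without untreated replicate 1, vector replicate 2 or 3 or plasmid replicate 2 (adjusted p = 0.266, 0.141, 0.0943 and 0.0504) and with RLE factors (0.0576), and the DNAJB6 call without vector replicate 3 (0.051). DNAJB1, the classic partner of inducible Hsp70 and the most abundant of the family (ENSG00000132002, chr19:14514770-14529770), stood at 135, 129.5 and 135 CPM untreated, 130.4, 130.3 and 136 with vector and 128, 143 and 140.4 with plasmid. Its groups overlapped and its fold change after vector was -0.01 ± 0.06, or 0.24 by library size alone. DNAJB4, the least abundant, was at 0.37 ± 0.31 and not called.

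BAG1, an exchange factor for Hsp70 that also binds BCL2, was higher after the empty vector, while BAG3, which links Hsp70 to small heat shock proteins in selective autophagy, was not called. BAG1 (ENSG00000107262, chr9:33247820-33264720) stood at 9.01, 10.2 and 10.97 CPM untreated, 15.5, 15.001 and 15.3 with vector and 12.9, 17.4 and 13.1 with plasmid. All 6 transfected libraries exceeded the untreated ones. The fold change was 0.60 ± 0.12 after vector (adjusted p = 0.000642), the second largest among the members. BAG3 (ENSG00000151929, chr10:119651370-119677819) stood at 122, 129 and 122 CPM untreated, 116, 112 and 122 with vector and 117, 127 and 116 with plasmid, with overlapping groups and -0.09 ± 0.06 after vector (adjusted p = 0.354), or 0.15 by library size alone.

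The cytosolic Hsp90 genes moved in opposite directions after the empty vector. HSP90AA1, the stress-inducible form (ENSG00000080824, chr14:102080738-102139699), stood at 304, 355 and 337 CPM untreated, 371, 518 and 454 with vector and 341, 318 and 398 with plasmid. HSP90AB1, the constitutive form (ENSG00000096384, chr6:44246166-44253888), stood at 968, 1156 and 1083 CPM untreated, 940.3, 919 and 889 with vector and 912, 948 and 939 with plasmid. In TMM-scaled CPM, HSP90AA1 was above the untreated range in all vector libraries, and HSP90AB1 was below it in all 6 transfected ones.
The fold changes after vector were 0.43 ± 0.09 for HSP90AA1 (adjusted p = 0.000792) and -0.22 ± 0.07 for HSP90AB1 (adjusted p = 0.0201). The HSP90AB1 call was lost without vector replicate 2 or 3 or untreated replicate 2 (adjusted p = 0.0535, 0.0883 and 0.14), and by library size alone its fold change was 0.02. The ratio of HSP90AA1 to HSP90AB1 per exonic length, free of scaling, was 0.178, 0.174 and 0.177 in untreated, 0.224, 0.320 and 0.290 in vector and 0.212, 0.191 and 0.241 in plasmid libraries. All transfected libraries had a higher ratio than all untreated ones, and the untreated libraries were the most alike. Both genes have at least 3 heat shock units in the windows printed above.

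With TMM scaling, FKBP4 alone of the 6 Hsp90 cochaperones was called, lower after the empty vector. FKBP4, an immunophilin of steroid receptor complexes (ENSG00000004478, chr12:2794953-2805423), stood at 516, 503 and 491 CPM untreated, 446, 424 and 424 with vector and 429.9, 463 and 428 with plasmid. All transfected libraries lay below the untreated ones, with -0.22 ± 0.06 after vector (adjusted p = 0.0104), or 0.02 by library size alone; 3 annotated genes together overlap 11.4% of its exons on the opposite strand.
CHORDC1, which has the longest run of heat shock units (ENSG00000110172, chr11:90201160-90223364), stood at 7.85, 7.47 and 7.15 CPM untreated, 7.29, 9.35 and 9.72 with vector and 8.003, 7.03 and 7.81 with plasmid. Vector replicate 1 fell inside the untreated range, and the fold change was 0.23 ± 0.14 (adjusted p = 0.266), or 0.48 by library size alone (adjusted p = 0.0149). STIP1, which bridges Hsp70 and Hsp90, AHSA1, which speeds the Hsp90 ATPase, PTGES3 (p23), which stabilizes the closed form, and CDC37, which loads kinases, lay between -0.02 and 0.04 after vector. By library size alone STIP1, AHSA1, PTGES3 and CDC37 were each called higher, at 0.23 to 0.29.

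HSPB1 was lower after the empty vector. This gene (ENSG00000106211, chr7:76302544-76304295) stood at 578, 624 and 633 CPM untreated, 536, 474 and 468 with vector and 537, 599 and 575 with plasmid. All vector libraries were below all others, and plasmid libraries overlapped the untreated range. The fold changes were -0.31 ± 0.07 after vector (adjusted p = 0.00134) and 0.21 ± 0.07 for plasmid against vector (adjusted p = 0.326); by library size alone the first was -0.07 and not called. HSPB8, a partner of BAG3, was between 0.945 and 1.90 CPM in every library and not called.

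No mitochondrial chaperone was called by edgeR after the empty vector; the unadjusted p of the quasi-likelihood test was 0.0125 for TRAP1, 0.0493 for HSPD1, 0.0401 for HSPA9 and 0.217 for HSPE1. TRAP1 (ENSG00000126602, chr16:3651639-3717597) stood at 614, 572 and 576 CPM untreated, 558, 509 and 497 with vector and 531, 541 and 527 with plasmid, all transfected libraries below the untreated ones. Its fold change after vector was -0.17 ± 0.06 (adjusted p = 0.0596), or 0.07 by library size alone, and DESeq2 called it (adjusted p = 0.01), as did limma-voom (0.0305), RLE factors (0.0399), the fit with the mitochondrial genome left out (0.0444) and that without vector replicate 1 (0.0144); another gene overlaps 29.3% of its exons on the opposite strand. HSPD1, the mitochondrial Hsp60 (ENSG00000144381, chr2:197486581-197516737), stood at 121, 165 and 136 CPM untreated, 110.3, 133 and 129.6 with vector and 126, 112 and 122 with plasmid. Its groups overlapped, with -0.18 ± 0.09 after vector (adjusted p = 0.157), or 0.07 by library size alone; without untreated replicate 1 it was called, at -0.29 (adjusted p = 0.0182). Its lid partner HSPE1 was at -0.15 ± 0.12 and the mitochondrial Hsp70 HSPA9 at 0.15 ± 0.07, neither called; pseudogene entries of HSPE1 held reads equal to 4.98% of its own.

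The chaperonin subunits moved apart from each other. After the empty vector TCP1 was lower, CCT2 and CCT3 were higher, and CCT4, CCT5, CCT7 and CCT8 were not called, although all encode subunits of the same ring (CCT6A, another subunit, is not among the members); CCT4 was called without untreated replicate 3 (0.25, adjusted p = 0.0337). TCP1 (CCT1; ENSG00000120438, chr6:159778498-159789749) stood at 359, 376 and 347 CPM untreated, 264, 244 and 266 with vector and 296, 287 and 272 with plasmid. The 3 groups did not overlap: untreated was highest, plasmid between and vector lowest. The fold changes were -0.48 ± 0.06 after vector (adjusted p = 2.2e-06) and -0.34 ± 0.06 after plasmid (adjusted p = 0.000589), and -0.24 after vector by library size alone (adjusted p = 0.00247). The gene ACAT2 overlaps 8.05% of its exons on the opposite strand, and a pair of small nucleolar RNA genes 3.08% on the same strand.
CCT3 (ENSG00000163468, chr1:156308968-156367873) stood at 371, 387 and 409 CPM untreated, 484, 477 and 495 with vector and 440.3, 454 and 485 with plasmid. All transfected libraries were above all untreated ones, with 0.32 ± 0.06 after vector (adjusted p = 0.000513). CCT2 (ENSG00000166226, chr12:69585334-69601570) stood at 35.9, 46.4 and 52.0 CPM untreated, 56.4, 56.6 and 59.7 with vector and 53.3, 46.02 and 60.2 with plasmid, with 0.36 ± 0.10 after vector (adjusted p = 0.00822). That call was lost without untreated replicate 1, the lowest library (0.22, adjusted p = 0.119). CCT7, the most abundant subunit (ENSG00000135624, chr2:73233420-73253021), stood at 776, 764 and 751 CPM untreated, 803, 710.4 and 736 with vector and 732, 764 and 781 with plasmid. Its groups overlapped, with -0.03 ± 0.07 after vector, or 0.22 by library size alone.

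Shares among the 7 listed chaperonin genes do not depend on scaling; CCT6A is not in the sum. Of their reads per kilobase, TCP1 took 14.5%, 14.6% and 13.3% in untreated, 9.91%, 9.78% and 9.90% in vector and 11.8%, 11.05% and 10.1% in plasmid libraries. CCT3 took 18.4%, 18.4% and 19.2%, then 22.3%, 23.4% and 22.6%, then 21.5%, 21.5% and 22.1% in the same order. The ratio of CCT3 to TCP1 was 1.32 ± 0.105 untreated, 2.31 ± 0.0787 with vector and 1.98 ± 0.181 with plasmid (SD, n = 3). These 3 quantities rest on the same TCP1 and CCT3 reads. In each of them the groups were fully separated, with plasmid libraries between the others. CCT4, CCT5, CCT7 and CCT8 shares overlapped between all groups.
Over the 12 ratios and shares computed, 36 exact two-sided permutation tests were made; with 3 against 3 libraries none can go below p = 0.1, which the TCP1 and CCT3 shares reached in all 3 comparisons (0.2 after Benjamini-Hochberg adjustment over the 36).

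**Figure D3:**
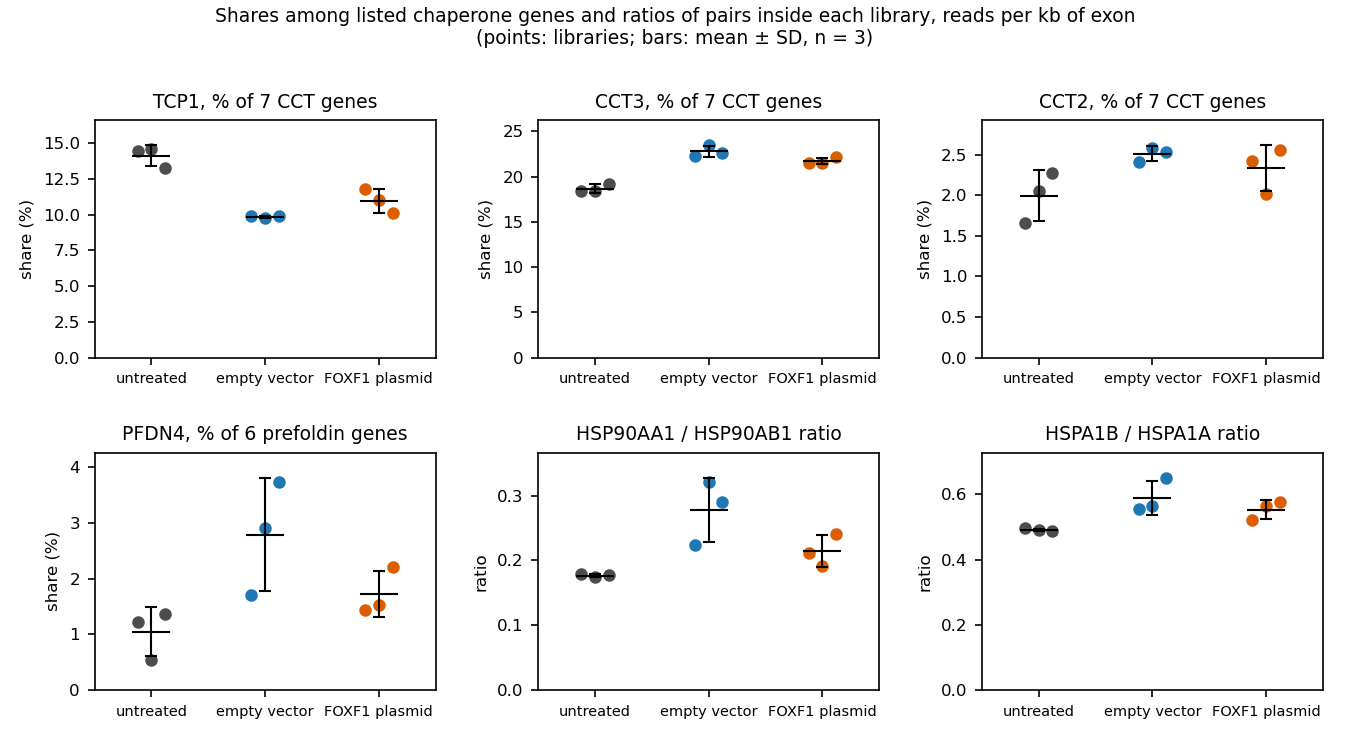
Points are the 9 libraries and bars the mean ± SD (n = 3); the vertical axes show a gene's share among the 7 listed chaperonin or 6 prefoldin genes in percent, or the ratio of a gene pair, from reads per kilobase of exon. TCP1 takes 14.1% of the 7 chaperonin genes in untreated and 9.86% in vector libraries, and CCT3 takes 18.7% and 22.8%. The 6 panels were chosen from 12 ratios and shares, and in them the untreated libraries lie apart from the vector libraries. Each panel holds a gene called in this same comparison, so that separation is no further support. The shares of CCT4, CCT5, CCT7 and CCT8, which overlapped, are not drawn.

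In prefoldin, PFDN4 was higher after the empty vector and the other 5 subunits were not called. PFDN4 (ENSG00000101132, chr20:54207847-54228052) had the largest change of all members but few reads: 83, 39 and 98 untreated, 147, 243 and 325 with vector and 114, 109 and 172 with plasmid. In CPM this was 2.36, 1.07 and 2.78, then 3.71, 5.51 and 7.56, then 2.83, 3.21 and 4.59. All transfected libraries were above all untreated ones, and the vector libraries were widely spread. The fold changes were 1.44 ± 0.27 after vector (adjusted p = 0.000227) and 0.78 ± 0.27 after plasmid (adjusted p = 0.0759); the latter was called without untreated replicate 3 (1.03, adjusted p = 0.0242) or vector replicate 1 (0.78, adjusted p = 0.0351), with a replicate block (adjusted p = 0.031), with no filter on low counts (0.76, adjusted p = 0.00916) and by library size alone (0.92, adjusted p = 0.0445).
PFDN4 took 1.04% ± 0.438 of prefoldin reads per kilobase untreated, 2.79% ± 1.02 with vector and 1.72% ± 0.420 with plasmid (SD, n = 3). It thus stayed the least abundant subunit in each group mean. PFDN2, the most abundant per kilobase of exon (not in CPM, where PFDN5 and PFDN6 were above it in every group mean; its exonic length of 677 bases is the shortest of the 6; ENSG00000143256, chr1:161100556-161118111), stood at 24.0, 26.2 and 26.2 CPM untreated, 30.9, 25.3 and 26.6 with vector and 25.5, 29.4 and 26.9 with plasmid, with 0.12 ± 0.09 after vector (adjusted p = 0.411). PFDN1, PFDN5 and PFDN6 lay between -0.12 and -0.08 and VBP1 (prefoldin 3) at 0.31 ± 0.14 (adjusted p = 0.126), or 0.40 without vector replicate 1 (adjusted p = 0.0398).

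**Figure D4:**
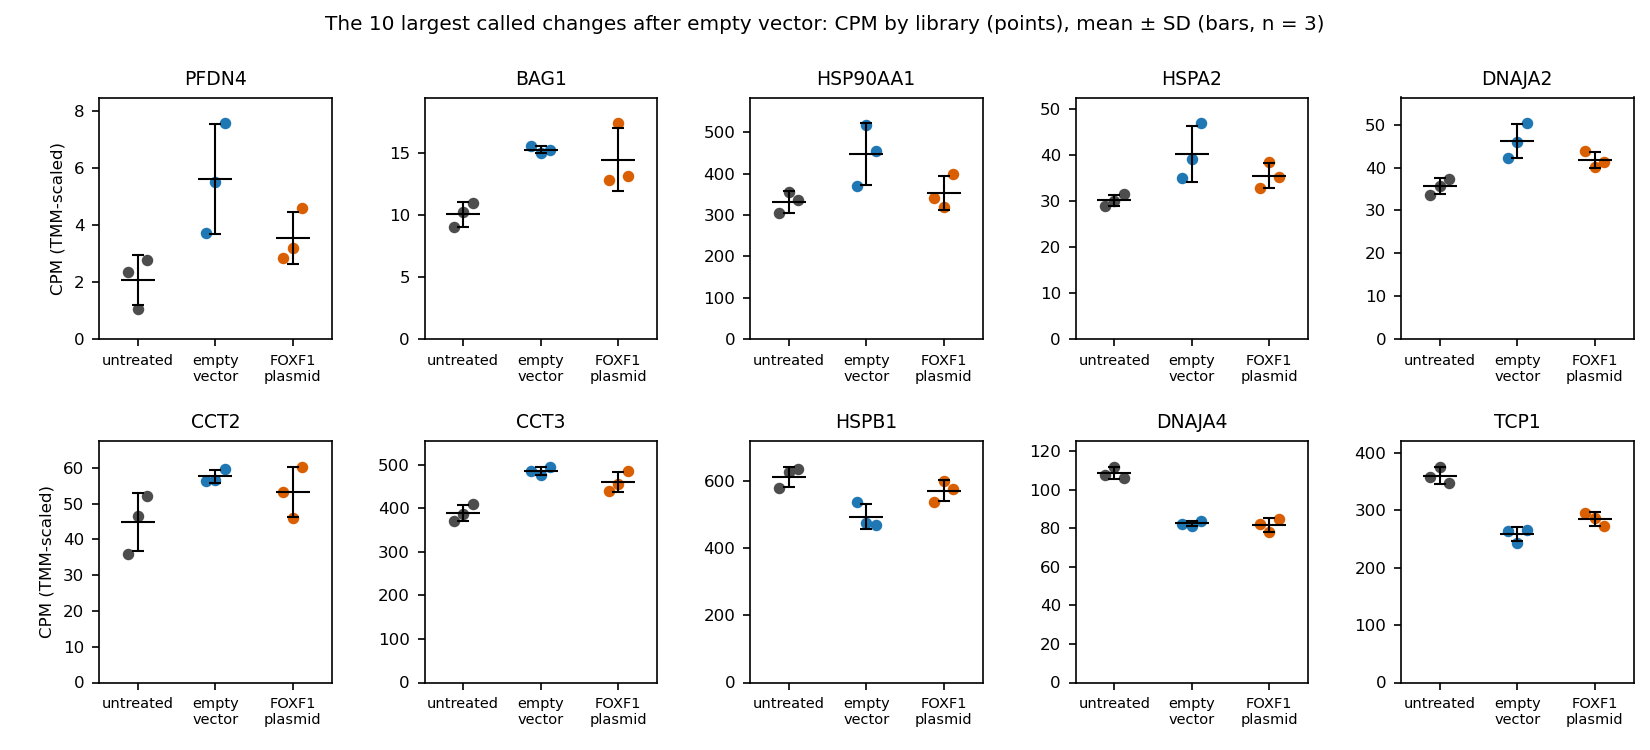
Points are CPM (TMM-scaled) in single libraries and bars the mean ± SD (n = 3) for the 10 members with the largest called changes between empty vector and untreated cells, each on its own axis from 0. The 7 higher genes are shown first, from PFDN4 to CCT3, and the 3 lower ones last. By library size alone HSPB1 and DNAJA4 would not be called. The untreated and vector points do not overlap in any panel. The genes were picked by this same comparison, so that separation is no further support.

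Among the 8 genes with at least 3 heat shock units, HSP90AA1, HSPA8, DNAJA1 and DNAJB6 were higher after the empty vector. HSP90AB1 was lower, and HSPA6, CHORDC1 and HSPD1 were not called. Over all genes, 10.2% were called higher and 9.37% lower. By library size alone CHORDC1 was also called higher (0.48, adjusted p = 0.0149) and HSP90AB1 was not called (0.02). The shares over all genes were then 35.0% higher and 2.07% lower. The part of the motif in these changes was not tested.

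Between FOXF1 plasmid and empty vector, no member was called by edgeR, against 0.055% called higher (9 genes) and 0% lower over all genes. At an unadjusted p below 0.05, HSF1, HSPB1 and TCP1 were higher and HSPA4L, HSP90AA1 and PFDN4 lower, 3 in each direction, against 5.09% higher and 4.34% lower over all genes. All plasmid libraries exceeded all vector libraries for 5 members, and for none were all lower, against 7.33% and 5.68% over all genes. DESeq2 called HSPB1 higher and HSP90AA1 lower (0.648% higher and 0.0122% lower over all genes), and limma-voom called none. The median log2 fold change was -0.04 over the members and -0.01 over all genes.
Calls in this comparison changed when vector replicate 1 was left out. HSP90AA1 was at -0.35 ± 0.09 (adjusted p = 0.169); plasmid replicate 3 lay above vector replicate 1, and the groups overlapped. Without vector replicate 1, HSP90AA1 (-0.46, adjusted p = 0.00171) and PFDN4 (-0.88, adjusted p = 0.0483) were called lower and HSPB1 higher (0.28, adjusted p = 0.0332), against 0.92% higher and 1.03% lower over all genes in that fit. HSPA4L, an Hsp110 gene, stood at 2.45, 3.45 and 3.93 CPM with vector and 2.51, 2.59 and 1.89 with plasmid, at -0.49 ± 0.21 (adjusted p = 0.482).

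Between FOXF1 plasmid and untreated cells, BAG1, CCT3 and DNAJB6 were higher and TCP1, DNAJA4, HSPA1A, HSPH1 and FKBP4 lower, against 4.63% higher and 3.89% lower over all genes. The medians were 0.02 for members and 0.02 for all genes. This comparison shares the untreated libraries with the one above, so values are given side by side only. TCP1 was at -0.48 with vector and -0.34 with plasmid, DNAJA4 at -0.40 and -0.41, HSPA1A at -0.27 and -0.33, FKBP4 at -0.22 and -0.19. BAG1 was at 0.60 and 0.52, CCT3 at 0.32 and 0.24, DNAJB6 at 0.25 and 0.21. HSP90AA1, at 0.43 with vector, was at 0.09 ± 0.09 with plasmid and not called.
The difference between the transfected groups for these genes is the comparison of plasmid with vector above, in which the quasi-likelihood test called none; HSP90AA1 was called lower there by DESeq2 (-0.33, adjusted p = 0.035), with no filter on low counts (-0.36, adjusted p = 2.58e-05) and without vector replicate 1. The number of calls against untreated cells moved with single libraries, for the members and for all genes: without untreated replicate 1 or plasmid replicate 2 none of the higher calls remained and 5 or 4 members were lower, without plasmid replicate 3 there were 2 higher and 3 lower, and without untreated replicate 2 there were 1 higher and 3 lower. Over all genes the shares called higher and lower were 2.78% and 2.5% without untreated replicate 1, 2.79% and 2.74% without plasmid replicate 2, 3.13% and 2.09% without plasmid replicate 3, and 2.63% and 2.25% without untreated replicate 2. The FKBP4 call also ended without plasmid replicate 1 or vector replicate 2 or 3 (adjusted p = 0.168, 0.0576 and 0.0525), with a replicate block (0.0503) and by library size alone (-0.05, adjusted p = 0.588). The DNAJB6 call ended without 6 of the 9 libraries, each in turn (lowest adjusted p = 0.0581), and with limma-voom, RLE factors, the mitochondrial genome left out and no filter on low counts (adjusted p = 0.053, 0.078, 0.0602 and 0.0718). HSP90AB1, not called here, was called lower by DESeq2 and limma-voom (adjusted p = 0.0152 and 0.041). TCP1 and DNAJA4 were called lower in all 18 alternatives, and HSPA1A in all but library size alone (-0.18, adjusted p = 0.0737). By library size alone 9 members were higher and 2 lower, against 14.2% and 1.1% over all genes.

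Chaperone genes outside the 47 were also called in both directions. Of 73 listed genes, 67 were tested; after the empty vector 13 were higher and 14 lower (10.2% and 9.37% over all genes), between plasmid and vector 0 were called by edgeR, DESeq2 or limma-voom (4 had an unadjusted p below 0.05: NUDC and UXT higher, GRPEL2 and DNAJC21 lower), and between plasmid and untreated 5 were higher and 4 lower (4.63% and 3.89% over all genes). Of 18 further Hsp70 partners, 3 were higher and 3 lower, among them the J-domain genes DNAJC8 (0.74 ± 0.10) and DNAJC9 (0.43 ± 0.09), and ST13, the Hip cochaperone (-0.37 ± 0.06). Of 16 further Hsp90 partners, 1 was higher, CDC37L1 (0.77 ± 0.27), and 4 lower, led by NUDC (-0.40 ± 0.07) and RUVBL2 (-0.29 ± 0.07), an ATPase of the R2TP complex.
Of 8 tested genes related to HSF or known as its targets, 3 were higher and none lower: ZFAND2A (0.51 ± 0.15), IER5 (0.42 ± 0.06) and the collagen chaperone SERPINH1 (0.33 ± 0.07). Of 13 partners of the chaperonin and prefoldin, 3 were higher, including PDCL (0.57 ± 0.15) and PDRG1 (0.30 ± 0.10), and 4 lower, led by UXT (-0.41 ± 0.09), a prefoldin-like protein. Of 10 genes of mitochondrial protein quality control, 3 were higher, including the exchange factor GRPEL2 (0.59 ± 0.17) and the protease YME1L1 (0.36 ± 0.12), and 3 lower, led by the disaggregase CLPB (-0.40 ± 0.07). Of 7 other small heat shock protein genes, HSPB6 (0.08 ± 0.24) and HSPB11 (-0.10 ± 0.12) were tested and neither was called. By library size alone 31 of the 67 were higher and 1 lower after the vector, against 35.0% and 2.07% over all genes; of the genes named here, NUDC kept its lower call and ST13, RUVBL2, UXT and CLPB were not called.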

How the data were processed

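The kit was a stranded mRNA kit, per the labels' protocols, for 3 groups of 3 EPC2 libraries. The authors deposited unnormalized counts by Ensembl identifier; alignment used STAR 2.5.2b to GRCh38 and counting HTSeq, after bcl2fastq, per the submitters' processing notes. How the counter treated strand, and with which annotation, is not given in the sources used here, so reads of overlapping or antisense genes (19 members overlap a gene on the opposite strand, 10 on the same strand, 9 by over 10% of their exons) and of near-identical copies may be misassigned. Pseudogene entries of 16 members held 0.111% of the members' reads; HSPA1A, HSPA1B and PFDN6 have 5 entries each, of which 1 had reads.

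The deposited counts were filtered with filterByExpr (minimum count 10), scaled by TMM and fitted for all 9 libraries with edgeR 4.0.16 (R 4.3.3) by quasi-likelihood; p-values were Benjamini-Hochberg adjusted over 16366 genes, with a threshold of 0.05. SE is the absolute log2 fold change over the root of F. DESeq2 1.42.0, limma 3.58.1 (voom), other scalings (RLE factors, library size alone, mitochondrial genome left out) and filters, a replicate block and leaving out each library were alternatives. The fit was also run on counts simulated from its own means and dispersions. That run does not bear on the choice of scaling. Exonic lengths come from GENCODE 29, where all 47 members matched. Promoters are RefSeq windows. Replicates differed by more than sampling noise (chi-square per degree of freedom 8.60 to 23.2).

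Members and lists were chosen with earlier results of these data known. Given in full were, by rule, members called between plasmid and vector, the 10 largest called changes after vector, and each family's most abundant and most changed member (23 members); of other lists, the 3 largest called changes. HSPA1A, HSPA1B, HSPA4L and the members described by a range or a fold change alone fall outside that rule and were named after their values were seen.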

Additional observations from a re-analysis of the deposited data

How the results depend on the processing

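After the empty vector, 17 members were called in all. By library size alone 26 were called, against 35.0% higher and 2.07% lower over all genes. When each library was left out in turn the number was 13 to 19. Over all genes, 1026 to 2106 were then called higher and 982 to 1791 lower, of 16707 to 16800 tested. Between plasmid and vector, where 0 were called, DESeq2 called 2 members, the fit with no filter on low counts called 1 (HSP90AA1, adjusted p = 2.58e-05), and leaving out each library gave 0 to 3. Over all genes, DESeq2 called 0.648% higher and 0.0122% lower, and the fit with no filter 0.195% and 0.139%. Leaving out each library gave 1 to 154 of all genes higher and 0 to 172 lower. Between plasmid and untreated, where 8 were called, leaving out each library gave 4 to 11. Over all genes this gave 440 to 947 higher and 350 to 782 lower. Of values called on either side, 4 turned sign, all after the empty vector by library size alone: CCT7 (0.22), DNAJB1 (0.24), FKBP4 (0.022) and HSP90AB1 (0.021). Over the named members and the 3 comparisons, 1123 of 1233 values kept direction and side of the threshold, 34 lost a call and 35 gained one; the sign also turned for 37 values called on neither side, 16 of them by library size alone, 19 with a library left out, and 1 each with RLE factors and DESeq2 (DNAJA4 between plasmid and vector). The causes were not tested.

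Correlations of deviations from the group means were -0.09 to 0.08 for same-numbered libraries and -0.08 to 0.13 for differently numbered ones. Whether the numbers mark a shared day or batch is not given in the labels, and these correlations cannot settle it. With a replicate block the members called were 17 after vector, 0 between plasmid and vector and 8 between plasmid and untreated (4 higher, 4 lower). Over all 16366 genes it called 1719 higher and 1573 lower, 16 and 0, and 851 and 693, in the same order.

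The precision was lowest for rare transcripts: the SE of the log2 fold change after vector was 0.48 for HSPA6, 0.31 for DNAJB4, 0.30 for HSPB8 and 0.27 for PFDN4, against 0.06 for TCP1. An unadjusted p below 0.05 between plasmid and vector was found for 6 members, against 5.09% higher and 4.34% lower over all genes.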
